A study of Homo sapiens with 20 samples.

Results

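The genes of voltage-gated and potassium ion channels were examined in NGP cells, a human neuroblastoma cell line, treated with nutlin-3 or with vehicle. The members were chosen by gene name alone: all protein-coding genes of the GENCODE annotation named KCN, SCN or CACN with a subunit letter and number. These were 135 genes, of 19563 protein-coding genes and 34439 protein-coding or lncRNA genes with a transcript in the data. Of the members, 95 belong to potassium channels, 26 to calcium channels and 14 to sodium channels, and 99 encode pore-forming and 36 auxiliary subunits. The study treated 10 replicates with nutlin-3, a racemic mixture at 8 µM that blocks the binding of MDM2 to p53, and 10 with ethanol, the solvent. All 20 samples were of this 1 cell line, grown in 6-well format, and poly(A) RNA was sequenced as paired-end reads. How long the cells were treated is not given in the sources used here. The results thus describe 1 line of cultured tumour cells and not neurons.

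Ion channels let ions cross the membrane down their gradients. Voltage-gated sodium and calcium channels (Nav and Cav) open on depolarization and carry inward current, and calcium entry also drives secretion and signalling. Potassium channels, opened by voltage, calcium or sodium or open at rest, carry outward current and hold the membrane potential. Neuroblastoma arises from the sympathoadrenal lineage of the neural crest, whose mature cells are excitable, and lines such as NGP express many of these genes. Nutlin-3 releases p53 from MDM2, and the MDM2 gene is itself a target of p53.

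Depth was 14455477 to 19532971 estimated counts per vehicle sample and 15078052 to 17442896 per nutlin sample. MDM2, the check of the treatment, was at 198.9 to 290.3 CPM (counts scaled to library size with TMM factors) with vehicle and at 4797 to 6005 CPM with nutlin. The 14 neuroblastoma markers together made up 6040 to 6774 CPM in the vehicle and 6728 to 8120 CPM in the nutlin samples. The 14 markers of other cell types together made up 27.59 to 34.61 CPM and 74.78 to 109.8 CPM. Of the 12 of these that could be tested, 5 rose and 2 fell. Those that rose were ACTA2, a smooth muscle actin, from a median of 1.02 to 40.61 CPM, the collagen gene COL1A1 from 9.162 to 35.51 CPM, the macrophage marker CD68 from 0.697 to 3.883 CPM, the endothelial marker PECAM1 from 0.373 to 1.239 CPM and the keratin gene KRT8 from 0.798 to 1.302 CPM. PDGFRB, of pericytes and fibroblasts, fell from 17.69 to 9.232 CPM. ALB, the albumin gene, was at 0 in every vehicle sample and had a median of 0.533 CPM with nutlin. SOX10 was listed at 0 in every nutlin sample, and the leukocyte marker PTPRC was not called, with medians of 0.0956 and 0.154 CPM. The part of these markers in the channel results was not tested. In bulk RNA, fewer cells of a type and less RNA per cell cannot be told apart.

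Of the 135 members, 125 had at least 1 count in each condition and were tested. At a false discovery rate (FDR) of 5% in edgeR's quasi-likelihood test over 27697 genes, 66 of them rose with nutlin, 23 fell and 36 were not significantly differentially expressed (SDE). Among all mRNAs tested, 32.4% rose and 38.5% fell, against 52.8% and 18.4% of the channel genes. The share called in either direction was 71.2% of the channel genes and 70.9% of all mRNAs, so the channel genes stood apart from the background in direction and not in how many were called. The median log2 fold change (LFC, nutlin over vehicle) was 0.594 over the channel genes and -0.006 over all mRNAs. Changes of at least a doubling or a halving were SDE in 48 channel genes, of which 40 rose and 8 fell. These were 38.4% of the channel genes tested, against 21.7% of the mRNAs.

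The direction was also seen among genes averaging at least 1 CPM over the 20 samples. That mean takes in both groups, so a gene high in only 1 group can pass it. KCNN4, at a vehicle median of 0.0711 CPM, passed through its nutlin values. So did KCNS2 and KCNN3, with every vehicle sample under 1 CPM, whereas KCNS3 passed through its vehicle values. Such genes are included in the counts that follow. At a mean of at least 1 CPM, 40 of 71 channel genes rose, 21 fell and 10 were not called, whereas 31.4% of all such mRNAs rose and 50.6% fell. Their median LFC was 0.383, against -0.149 for the mRNAs of that abundance. Below 1 CPM, 26 of 54 rose, 2 fell and 26 were not called, beside 35.4% and 4.59% of the mRNAs there. The calls that rose below 1 CPM had an LFC between 0.581 and 4.87, and counting error is large at that level. In 28 channel genes every nutlin sample lay above every vehicle sample, and in 9 every nutlin sample lay below. Such separation was found in 14.5% and 25.6% of all mRNAs.

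**Figure D1:**
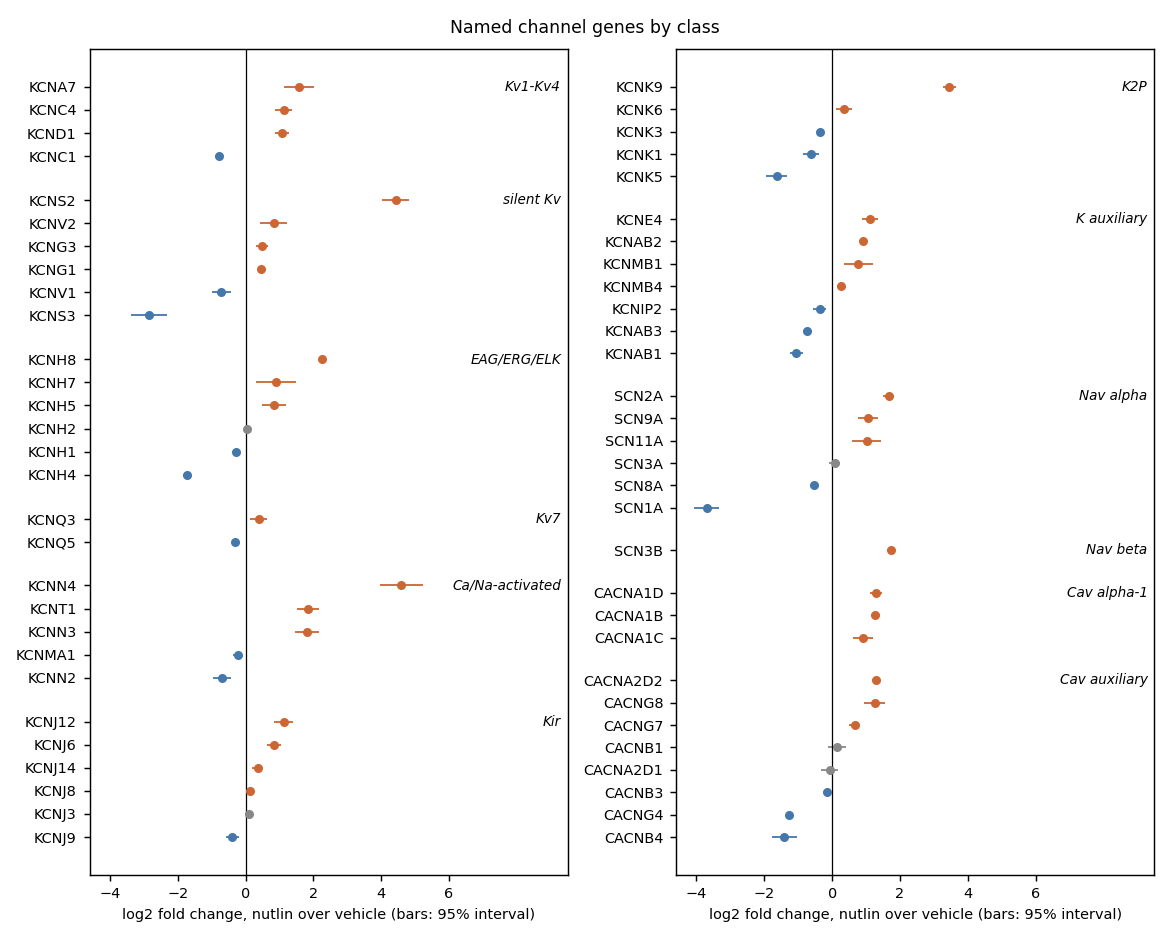
LFC of 59 channel genes by class, with nutlin over vehicle on the x axis and 95% intervals as bars. Orange points rose, blue points fell and grey points were not SDE at 5% FDR. KCNN4 and KCNS2 sit furthest to the right, at 4.60 and 4.43, and SCN1A furthest to the left, at -3.70.

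Levels between genes were compared per transcript length, in TPM, the abundance unit of the authors' quantification. Few channel genes were abundant: 50 members had a mean of at least 1 TPM with vehicle and 54 with nutlin, and 9 and 12 had at least 10 TPM. The summed TPM of all members lay between 407 and 516 in the vehicle and between 466 and 547 in the nutlin samples, so these ranges overlapped. Single genes changed more. With vehicle CACNG4 was at 50.2 ± 3.59 TPM (mean ± SD, n = 10), above KCNH2 at 41.6 ± 2.72 TPM and KCNG1 at 41.0 ± 3.68 TPM, a pair that did not differ beyond its spread. With nutlin the most abundant member was KCNG1 at 58.8 ± 2.37 TPM, followed by KCNH8 at 47.6 ± 2.65 TPM and KCNH2 at 38.9 ± 3.45 TPM. KCNH8 had been at 10.03 ± 0.997 TPM with vehicle, and KCNK9 went from 1.24 ± 0.377 to 12.5 ± 1.70 TPM. These values sum all transcripts of a gene, coding or not. On protein_coding transcripts alone KCNK9 had means of 0.600 TPM with vehicle and 4.85 TPM with nutlin. KCNH8 then had means of 6.38 and 25.1 TPM, and KCNH2 of 20.5 and 23.2 TPM. CACNA1B was at 24.8 TPM with nutlin on that sum.

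Voltage-gated calcium channels showed the most one-sided change among the pore-forming classes with 5 or more genes tested. The alpha-1 subunit forms the pore and senses voltage. Of 9 alpha-1 genes tested 8 rose and 0 fell, with CACNA1A the one not called (LFC -0.02 ± 0.43 SE). At the unadjusted level of p under 0.05 the number that fell was also 0, and no other tool run called a fall. Among all mRNAs 32.4% rose and 38.5% fell. Only 3 of the 9 reached a mean of 1 CPM, and all 3 rose. Of the 6 below it 5 rose, at a level where 35.4% of the mRNAs rose and only 4.59% fell. CACNA1B encodes the N-type channel Cav2.2, which triggers transmitter release at sympathetic terminals. It was at 59.0 to 84.5 CPM (median 77.2) with vehicle and 139 to 217 CPM (median 177) with nutlin. The groups did not overlap, and the LFC was 1.27 ± 0.07 SE (adjusted p = 6.67e-16, edgeR). The L-type genes CACNA1D and CACNA1C, whose channels give long-lasting calcium entry, rose as well. CACNA1D had medians of 7.02 and 16.7 CPM (LFC 1.28 ± 0.09 SE), again without overlap. CACNA1C had medians of 4.78 and 8.72 CPM (LFC 0.92 ± 0.15 SE), with a highest vehicle sample of 7.73 CPM above the lowest nutlin sample of 5.59 CPM. With an offset for transcript length its LFC was 0.529. The T-type genes CACNA1G, CACNA1H and CACNA1I, which open near resting potential, also rose, all from vehicle medians of at most 0.297 CPM. CACNA1S, the skeletal muscle gene, was at 0 in every vehicle sample and was not tested. With nutlin it held 20 counts over the group (median 0.122 CPM). That level was 6.498-fold above a floor of 3 counts over the vehicle group.

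Auxiliary calcium channel subunits moved both ways. The alpha-2/delta subunits raise the number of channels at the surface, and 3 of their 4 genes rose (75%, beside 32.4% of all mRNAs). CACNA2D2 was at 37.3 to 45.6 CPM (median 41.0) with vehicle and 83.0 to 130 CPM (median 95.5) with nutlin. All nutlin samples were higher (LFC 1.28 ± 0.06 SE, adjusted p = 1.59e-17, edgeR). CACNA2D1, at medians of 43.9 and 40.3 CPM, was not SDE, with an LFC of -0.08 and a 95% interval from -0.317 to 0.163. Of the 4 genes of the intracellular beta subunits, CACNB4 fell from a median of 2.67 to 0.976 CPM (LFC -1.41 ± 0.19 SE). CACNB3, at 41.1 and 36.6 CPM, had an LFC of -0.15 (adjusted p = 0.0112) that was not SDE under DESeq2 (adjusted p = 0.0767). CACNB2 rose by 0.50, and CACNB1, at 13.1 and 14.2 CPM, was not SDE (95% interval -0.125 to 0.394).

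The gamma family holds genes whose products bind AMPA receptors as well as calcium channels. CACNG4 was the most abundant auxiliary gene of the vehicle samples. It was at 142 to 173 CPM (median 154) with vehicle and 58.4 to 72.4 CPM (median 65.1) with nutlin, so that every nutlin sample was lower (LFC -1.27 ± 0.04 SE, adjusted p = 3.88e-21, edgeR). Its neighbour on chromosome 17, CACNG1, fell by 1.40 from 0.35 CPM, and CACNG5 beside them was not called. The pair CACNG7 and CACNG8, adjacent on chromosome 19, rose. CACNG7 had medians of 6.04 and 9.28 CPM and CACNG8 of 1.46 and 3.18 CPM, and neither gene had overlapping groups. The family thus held both genes that rose and genes that fell.

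**Figure D2:**
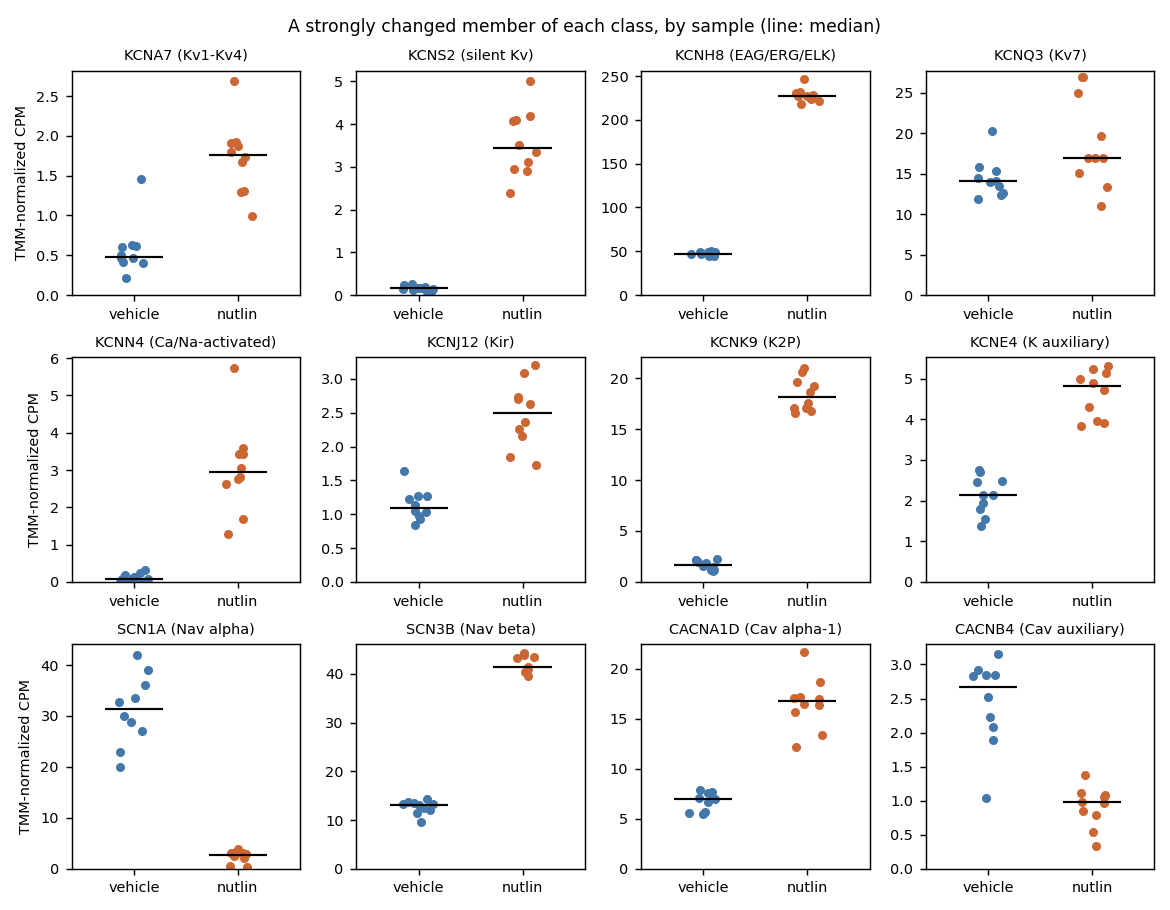
TMM-normalized CPM of each vehicle (blue) and nutlin (orange) sample for 1 SDE gene of each class, among genes averaging at least 1 CPM. Lines are medians and every axis starts at 0. The groups of KCNH8, KCNK9, SCN3B and SCN1A are far apart, whereas those of KCNQ3 overlap.

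The sodium channel alpha subunits carry the upstroke of the action potential. Of 9 tested 3 rose (33.3%), 2 fell (22.2%) and 4 were not called. Among all mRNAs 32.4% rose and 38.5% fell, so the share that rose was near the background. Of the family, 5 lie in a row on chromosome 2 (GRCh38, 165087526 to 166611482), in the order SCN3A, SCN2A, SCN1A, SCN9A and SCN7A. SCN1A encodes Nav1.1. It was at 19.96 to 42.0 CPM (median 31.4) with vehicle and at 0.394 to 3.81 CPM (median 2.77) with nutlin. All 10 nutlin samples were below all vehicle samples, and the LFC was -3.70 ± 0.19 SE, a 12.96-fold lower level (adjusted p = 1.15e-16, edgeR). SCN2A, the preceding sodium channel gene of the row, encodes Nav1.2 and went the other way. It was at 9.14 to 19.2 CPM (median 16.3) and 43.7 to 54.8 CPM (median 50.7), with every nutlin sample higher (LFC 1.67 ± 0.08 SE, adjusted p = 4.51e-17, edgeR). SCN9A, on the far side of SCN1A, encodes Nav1.7 of sympathetic and sensory neurons. Its medians were 5.54 and 12.4 CPM (LFC 1.07 ± 0.15 SE), with overlap between the groups. SCN3A, the embryonic Nav1.3, had the highest alpha-subunit level with vehicle, at 9.02 ± 2.24 TPM. It was not SDE, with medians of 46.0 and 50.5 CPM and a 95% interval of the LFC from -0.106 to 0.245. SCN7A was under 1 CPM and not called (LFC -0.41 ± 0.44 SE). SCN1A-AS1, an lncRNA on the other strand, overlaps SCN1A and SCN9A, and the authors' counting is not stated to use strand.

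**Figure D3:**
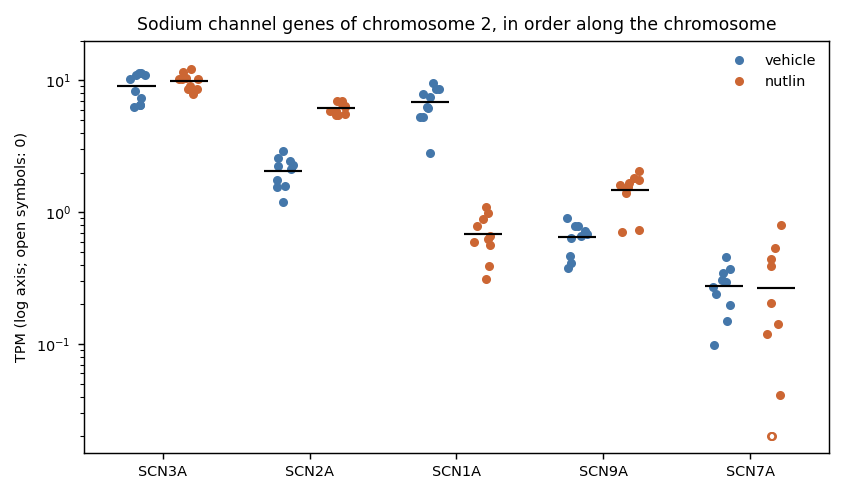
TPM on a log axis for the sodium channel genes of the chromosome 2 cluster, in their order along the chromosome, in each vehicle (blue) and nutlin (orange) sample. Lines are means and open symbols mark samples at 0. Between neighbours, SCN2A and SCN9A are higher with nutlin, at means of 6.15 and 1.48 TPM, and SCN1A is lower, at 0.690 TPM.

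Elsewhere, SCN8A, which encodes the Nav1.6 of the axon initial segment, fell from 32.9 to 40.9 CPM (median 37.1) to 21.1 to 27.9 CPM (median 26.1). The groups did not overlap (LFC -0.53 ± 0.05 SE). The sensory gene SCN11A rose from 0.729 to 1.51 CPM in the median (LFC 1.02 ± 0.22 SE). SCN4A, the skeletal muscle gene, had 0 counts in every vehicle sample and was at least 14.9-fold higher with nutlin.

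The beta subunits are adhesion-like proteins that anchor and tune the sodium channel. SCN3B was at 9.60 to 14.4 CPM (median 13.1) with vehicle and at 39.5 to 44.3 CPM (median 41.3) with nutlin. The nutlin samples were all higher and close together (LFC 1.73 ± 0.05 SE, adjusted p = 1.95e-22, edgeR). SCN4B was not tested because it had 0 counts in every vehicle sample. Every nutlin sample held 15 to 33 counts of it, and its level was 77.0-fold above the floor of 3 counts over the vehicle group. SCN2B had medians of 0.489 and 0.656 CPM and was not called. With no filter on low counts, SCN4B joined SCN3B among the calls.

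Among potassium channels the KCNH genes, of the EAG, ERG and ELK families, were the most abundant with nutlin. KCNH8, an ELK gene, was at 44.8 to 50.1 CPM (median 47.2) with vehicle and at 218 to 246 CPM (median 227) with nutlin. The groups were far apart, with the smallest SE of the class (LFC 2.26 ± 0.03 SE, 4.79-fold, adjusted p = 2.82e-30, edgeR). KCNH4, another ELK gene, changed in the opposite direction. It went from 46.2 to 63.7 CPM (median 57.4) to 14.4 to 20.1 CPM (median 16.8), again without overlap (LFC -1.72 ± 0.06 SE, adjusted p = 7.1e-21, edgeR). KCNH2, the hERG channel of cardiac repolarization, was at medians of 112 and 113 CPM and was not SDE. Its 95% interval, from -0.0427 to 0.106, allowed only small changes, but the shares of transcripts other than its leading one shifted. Summing protein_coding transcripts alone gave KCNH2 an LFC of 0.288 (adjusted p = 7.02e-07). The length offset gave it an LFC of -0.101 (adjusted p = 0.0391). KCNH1 fell by 0.30, a call lost with that offset (LFC -0.125, adjusted p = 0.628). KCNH5 and KCNH7, at medians of 2.08 and 2.18 CPM with nutlin, rose by 0.84 and 0.89.

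Kv7 channels, encoded by the KCNQ genes, carry the M-current that restrains repeated firing. KCNQ5 had medians of 47.0 and 37.8 CPM and fell by 0.31 ± 0.05 SE on the log2 scale. KCNQ3 rose by 0.38 from 14.02 CPM (adjusted p = 0.0127, edgeR), with overlapping groups.

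Shifts between the transcripts of a gene were looked for in the 30 channel genes that averaged at least 10 CPM and had 2 or more transcripts with counts. The share of the leading transcript did not overlap between the groups in 3 of them, KCNMA1 and KCNH8 included, compared with 8.29% of 8973 mRNAs of that abundance. In all 3 the mean shares were at least 10 percentage points apart, which held for 4.36% of the mRNAs. For KCNMA1, the pore of the calcium- and voltage-activated BK channel, KCNMA1-203 went from 37.2% to 68.9% of the counts down to at most 32.6%. KCNMA1-223 went from 11.7% to 20.9% up to 38.8% to 57.2%. The counts of the gene as a whole fell only by 0.23 on the log2 scale, from a median of 17.7 to 14.7 CPM. KCNMA1-223 is the longer, at 11397 against 5732 bases, and its annotated start is incomplete.

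For KCNH8 (chromosome 3, plus strand) the shift was smaller and ran towards a transcript annotated as a target of nonsense-mediated decay, the pathway that removes mRNAs with early stop codons. KCNH8-201 has 1107 codons. KCNH8-202 shares its first 570 coding bases, up to position 19342714 in exon 4, then uses another exon and stops after 15 more coding bases. The sequences at the branch are shown 5′ to 3′ because they mark what sets the products apart, with the shared end of exon 4 in lower case and the first bases of each transcript's own part in capitals.
KCNH8-201: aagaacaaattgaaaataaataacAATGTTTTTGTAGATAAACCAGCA
KCNH8-202: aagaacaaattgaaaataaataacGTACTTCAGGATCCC
KCNH8-202 took 28.03% to 44.46% of the counts (median 35.5%) with vehicle and 44.64% to 49.52% (median 47.3%) with nutlin, so the groups nearly touched. Both transcripts rose in counts. The coding KCNH8-201 went from a median of 468.9 to 1900 counts per sample. In KCNH2, the 3 retained-intron transcripts together took 40.4% to 49.0% of the counts (median 43.8%) with vehicle and 31.9% to 36.8% (median 35.0%) with nutlin, without overlap. KCNH2-203 went from 24.8% to 35.9% of the counts (median 28.1%) to 10.8% to 23.9% (median 16.1%), KCNH2-204 had medians of 10.9% and 7.63%, and KCNH2-205 was higher with nutlin in the median, at 5.12% and 10.7%. The last 2 had overlapping groups. The full-length KCNH2-201, of 1159 codons, had medians of 3.32% and 14.7%, with overlap. The leading KCNH2-202, of 819 codons, had medians of 52.0% and 50.8%, also with overlap. KCNH2 was thus not among the 3 genes above, and the retained-intron share was not compared with other mRNAs. These shares come from the authors' estimates, which divide reads among transcripts by a model.

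**Figure D4:**
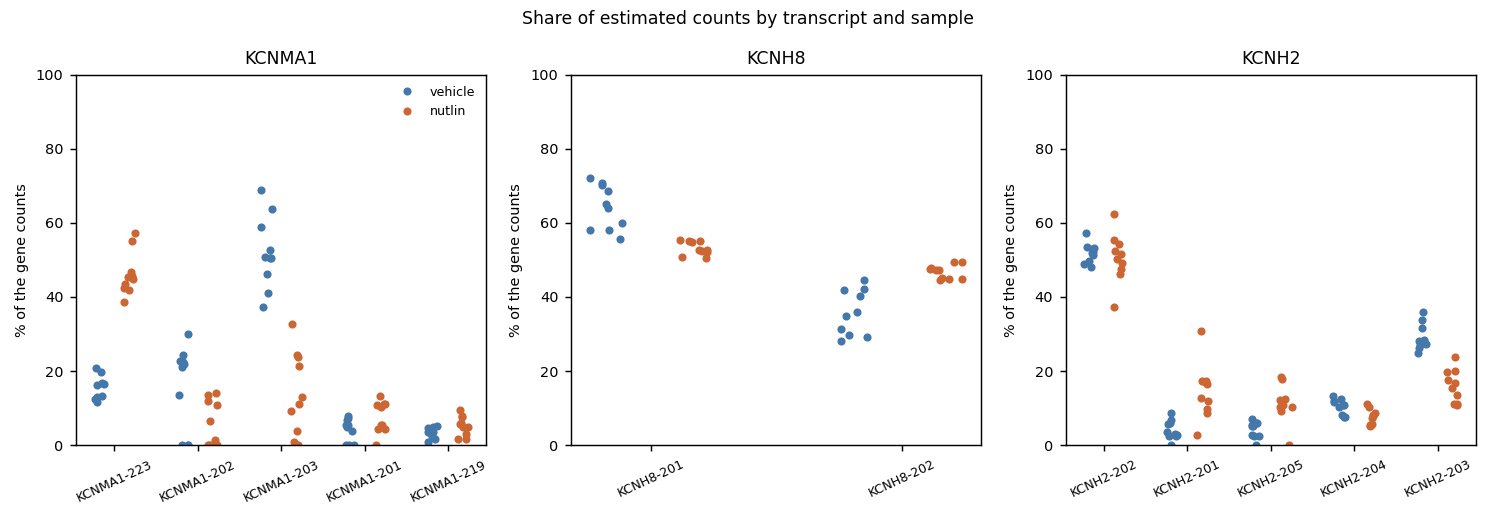
Percent of the estimated counts of KCNMA1, KCNH8 and KCNH2 given to each transcript in each vehicle (blue) and nutlin (orange) sample, for transcripts with a mean of at least 5% in either group. KCNMA1-223 is at 11.7% to 20.9% with vehicle and at 38.8% to 57.2% with nutlin, and KCNMA1-203 shows the opposite order.

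Potassium channels activated by intracellular calcium or sodium included the largest rise among genes averaging at least 1 CPM over the 20 samples. KCNN4 encodes the intermediate-conductance KCa3.1 of non-excitable cells. It was at 0 to 0.306 CPM (median 0.0711) with vehicle, 2 samples being at 0, and at 1.30 to 5.73 CPM (median 2.94) with nutlin. The groups were apart (LFC 4.60 ± 0.33 SE, adjusted p = 3.21e-13, edgeR), though the vehicle level rests on few counts. The small-conductance KCNN3 rose from 0.544 to 1.86 CPM, while KCNN2, more abundant, fell from a median of 12.1 to 8.18 CPM (LFC -0.69 ± 0.13 SE). Both sodium-activated genes rose without overlap. KCNT1 had medians of 1.02 and 3.62 CPM (LFC 1.83 ± 0.16 SE) and KCNT2 of 14.1 and 26.8 CPM (LFC 0.93 ± 0.06 SE).

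The two-pore-domain (K2P) channels carry background current at rest. KCNK9, the acid-sensitive TASK-3, was at 1.07 to 2.22 CPM (median 1.69) with vehicle and 16.6 to 21.0 CPM (median 18.1) with nutlin. Its groups were far apart, a 10.96-fold difference (LFC 3.45 ± 0.10 SE, adjusted p = 7.82e-23, edgeR). Transcripts of the protein_coding type held a median of 45.9% of the KCNK9 counts with vehicle and 32.4% with nutlin. KCNK3, the related TASK-1, was the most abundant of the class with vehicle and went the other way, from a median of 50.6 to 38.0 CPM (LFC -0.36 ± 0.04 SE). The highest nutlin sample, at 46.2 CPM, overlapped the lowest vehicle sample, at 45.8 CPM. KCNK5, of the alkaline-activated TASK-2, fell from 3.38 to 1.03 CPM without overlap (LFC -1.64 ± 0.15 SE), and KCNK1 fell by 0.63. KCNK6 rose by 0.36 from 2.46 CPM, a call lost with the length offset (adjusted p = 0.347). KCNK13, of the THIK family, rose by 2.85 from 0.152 to 1.30 CPM.

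Subunits of the Kv1 to Kv4 families form delayed-rectifier and A-type currents. Of 15 tested 10 rose (66.7%) while KCNC1 alone fell (6.67%), beside 32.4% and 38.5% of all mRNAs. KCNC1, the fast Kv3.1, was the most abundant of them with vehicle, at 47.3 to 58.8 CPM (median 52.7). With nutlin it was at 25.4 to 37.5 CPM (median 31.0), below every vehicle sample (LFC -0.78 ± 0.06 SE, adjusted p = 2.3e-13, edgeR). Under the length offset 2 genes of the class fell. KCNC4, of the same Shaw family, rose by 1.12. KCNB2, a Shab gene, rose from a median of 3.61 to 7.81 CPM. KCND1 and KCNA7 rose by 1.08 and 1.59 from low levels, and KCND2, at 4.89 and 4.95 CPM, was not SDE (95% interval -0.203 to 0.204).

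Silent Kv subunits form no channel of their own and modify Kv2 channels. KCNS2, a Kv9 gene, was at 0.0688 to 0.266 CPM (median 0.158) with vehicle and 2.38 to 5.005 CPM (median 3.43) with nutlin (LFC 4.43 ± 0.20 SE, adjusted p = 6.8e-18, edgeR). KCNS3, of the same subfamily, moved in reverse. It was at 1.06 to 2.998 CPM (median 2.001) with vehicle and 0 to 0.481 CPM (median 0.314) with nutlin (LFC -2.85 ± 0.27 SE), and neither gene had overlapping groups. KCNG1, a Kv6 gene and the most abundant of the class, rose from a median of 58.1 to 82.9 CPM (LFC 0.47 ± 0.05 SE). KCNV1 fell by 0.72 and its relative KCNV2 rose by 0.83, and KCNG3 rose by 0.48.

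Inward rectifiers (Kir) pass potassium inward more readily than outward. Here 6 of 14 rose (42.9%), KCNJ9 alone fell (7.14%) and 7 were not called, beside 32.4% and 38.5% of all mRNAs. KCNJ6, the G-protein-gated Kir3.2, rose from 18.8 to 28.7 CPM (median 25.5) to 35.5 to 70.2 CPM (median 39.7), without overlap (LFC 0.84 ± 0.10 SE). KCNJ9, its relative Kir3.3, fell by 0.39. KCNJ3, which encodes Kir3.1, had medians of 16.1 and 17.0 CPM and an LFC of 0.11 (adjusted p = 0.107), but was SDE with DESeq2 (LFC 0.161, adjusted p = 0.0204). KCNJ2, the classical Kir2.1, rose by 2.54 from 0.273 to 1.53 CPM. KCNJ8, a pore of ATP-sensitive channels and the most abundant of the class, rose by 0.14 (adjusted p = 0.0328). Its LFC was 0.215 with edgeR's filterByExpr in place of the filter used here. It was just short of the threshold in a fit of 16 samples (adjusted p = 0.0501). KCNJ12, another Kir2 gene, rose from 1.09 to 2.49 CPM without overlap, and KCNJ14 rose by 0.36.

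Of the 16 auxiliary potassium channel genes 7 rose (43.8%) and 4 fell (25%), beside 32.4% and 38.5% of all mRNAs. KCNMB4, the neuronal beta subunit of BK, was the most abundant and rose by 0.26 from a median of 29.4 to 35.9 CPM (LFC 0.394 with an offset for effective transcript length). KCNMB1 rose by 0.77 from 0.962 CPM. KCNMB2, another BK beta gene, was at 0 in 8 vehicle samples and had a median of 0.637 CPM with nutlin. The cytoplasmic Kv beta genes were split. KCNAB1 fell from 7.19 to 3.34 CPM and KCNAB3 from 8.90 to 5.20 CPM, whereas KCNAB2 rose from 10.8 to 20.01 CPM. No group of these 3 overlapped, with LFCs of -1.05, -0.73 and 0.91. KCNE4, of the single-span KCNE family, rose by 1.11, but most of its counts were on a transcript of a non-coding type. With protein_coding transcripts alone its LFC was 0.494 (adjusted p = 0.103). KCNIP2, a calcium-binding partner of Kv4, fell by 0.37.

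The members not tested were KCNA5, KCNA10 and KCNJ18, at 0 in every sample, KCNK18, with 1 count in a single vehicle sample, and 6 genes at 0 in all vehicle samples. The latter were SCN4B, SCN4A, CACNA1S, CACNG6, KCNK16 and KCNJ10. Exons of 60 members overlap those of another annotated gene, mostly on the other strand, so reads of the pair may be shared.

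Genes with related functions outside the name rule were examined for comparison. Of 37 further cation channel genes tested (HCN, CNG, CATSPER, TPCN, TRP, mucolipin and others), 16 rose, 5 fell and 16 were not called, with a median LFC of 0.363. The share called was 56.8%, against 70.9% of all mRNAs. Among all mRNAs 32.4% rose and 38.5% fell, with a median LFC of -0.006. These related channels thus leaned upward too, as the members did. HCN3, of the pacemaker channels, fell from a median of 70.05 to 34.00 CPM and HCN2 rose from 8.041 to 13.65 CPM. NALCN, the sodium leak channel, rose by 1.49, and its partners UNC79 and UNC80 rose by 0.44 and 0.42. Of 25 partner protein genes tested, 11 rose and 6 fell (68% called, against 70.9% of all mRNAs). CNTNAP2, which clusters Kv1 channels at the juxtaparanode, fell by 1.34, and NEDD4L, a ubiquitin ligase of sodium and Kv7 channels, fell by 1.11. ANK3, which anchors Nav and Kv7 channels at the axon initial segment, rose from 21.5 to 42.1 CPM (LFC 0.89 ± 0.06 SE).

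Promoter sequences from RefSeq (GRCh38.p14) were matched for 97 of the 135 members, and the 250 bases before each start were searched on both strands. The p53 half-site consensus, searched by name, was present in 7.22% of these windows, against 5.07% of all 15153 protein-coding promoters. A full site, of a pair of half-sites up to 13 bases apart, was found in 0 of the channel windows and 0.0198% of all. Half-sites were in 3 of 41 windows of genes that rose (7.32%) and 2 of 17 of genes that fell (11.8%). The motif TTTGAA was in 13.4% and 10.7%, and TATAAA in 7.22% and 9.07%. KCNK13 is shown because it rose without overlap and its window held a half-site and no annotated exon. The window is chr14:90061744-90061993 on the plus strand, 5′ to 3′, with the half-site, 209 bases before the start, in capitals.
KCNK13: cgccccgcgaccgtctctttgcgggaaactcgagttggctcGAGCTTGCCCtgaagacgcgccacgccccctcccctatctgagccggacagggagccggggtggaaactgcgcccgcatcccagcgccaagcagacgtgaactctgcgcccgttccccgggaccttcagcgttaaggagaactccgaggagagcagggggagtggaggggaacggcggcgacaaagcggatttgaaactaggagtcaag
A match of letters is a description and no evidence of binding.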

How the data were processed

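The 20 samples were grouped as nutlin or vehicle from their labels. The authors quantified paired-end reads with kallisto 0.42.4 on transcripts of GRCh38 (Ensembl release 85). They deposited, per transcript, estimated counts without normalization, TPM, and effective lengths in bases. Estimated counts were summed per gene of GENCODE release 44 (191106 of 198968 transcripts matched) and rounded. Unmatched transcripts were left out and held 3.217% to 3.336% of the counts in vehicle samples and 4.051% to 4.292% in nutlin samples. The library kit is stranded, but whether the counting used strand is not given in the sources used here.

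All 27697 mRNA and lncRNA genes detected in both conditions (1 count or more in each) entered 1 fit in edgeR 4.0.16 (R 4.3.3), with TMM factors and condition as the model. P-values of the quasi-likelihood test were adjusted by Benjamini-Hochberg and called at 5% FDR. DESeq2 1.42.0 and limma 3.58.1 were alternatives. CPM values are TMM-normalized, and TPM was used to compare levels between genes and not in tests. Intervals are 95%. Folds for genes at 0 with vehicle used a floor of 3 counts over that group. They allow for counting error in the vehicle group only, not in the nutlin group. The fits were tested on simulated data.

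The members and lists were chosen with earlier results of these data known. Named in each class were up to 3 genes that rose and 3 that fell most among SDE genes averaging at least 1 CPM, the gene with the highest vehicle TPM, and genes of at least 10 CPM that were not SDE. Other genes were named after their values were seen. The study calls its samples biological replicates, and no 2 samples were identical. The sources do not say what the replicate numbers mark. Transcript shares are percentages of the estimated counts of a gene. Plots were made with Python 3.11.15 and matplotlib 3.10.9. Some results are not reported here.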

Additional observations from a re-analysis of the deposited data

Results flagged for a closer look

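Dixon's test at the 95% level was applied to each group of 10 samples for the 61 named channel genes, and 8 of 122 groups held a sample apart from the rest. Chance flags about 1 in 20 groups. In the vehicle group these were replicate 8 for CACNA1C at 7.73 CPM, replicate 5 for CACNB3 at 47.5 CPM, replicate 12 for KCNQ3 at 20.3 CPM and replicate 11 for KCNA7 at 1.46 CPM. In the nutlin group they were replicate 2 for KCNN4 at 5.73 CPM, replicate 1 for CACNB1 at 21.6 CPM, replicate 4 for KCNK3 at 46.2 CPM and replicate 9 for KCNH8 at 246 CPM. The 8 values came from 8 different samples and were all the highest of their group.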

How the results depend on the processing

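Over all alternatives, between 52 and 69 channel genes rose and between 21 and 25 fell. Counts of a class moved by more than 1.5 times mainly with the filterByExpr filter, which tested fewer genes: the genes that rose were then 4 for the Cav alpha-1, 4 for the Cav auxiliary, 4 for the K auxiliary and 4 for the K2P class, 6 for Kv1 to Kv4 and 2 for Nav beta, and 2 Cav auxiliary genes fell. With no filter 2 Nav beta genes rose, with protein_coding transcripts alone 4 K auxiliary genes rose, at 1% FDR 1 KCNQ gene rose, and with the effective-length offset 2 Kv1 to Kv4 genes fell. That offset turned KCNH2 to an LFC of -0.101 (adjusted p = 0.0391). The cause was not tested. The median LFC of all genes moved by -0.155 with filterByExpr and by 0.108 with no filter, which tested other sets of genes.

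Replicate numbers were shared by 8 samples of each group. Correlations of same-numbered samples lay between -0.048 and 0.077, so no pairing was seen. Low correlations cannot show that the cultures were unpaired. A fit of these 16 samples with a replicate block found 58 channel genes that rose and 22 that fell, against 61 and 22 without the block. Genes under 1 CPM are limited by depth.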
